A study of Homo sapiens with 5 samples.

Results

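Chromosomes 17 and 22 are gene-rich human chromosomes, and all peaks of H3K27ac and H3K4me1 on them are described here for VCaP, an established cell line from human prostate cancer. The members are all intervals on these chromosomes in the 4 deposited peak lists, 21621 of 364358 peaks. H3K27ac replicates 1 and 2 held 2416 and 2883 peaks on chromosome 17 and 1127 and 1362 on chromosome 22. H3K4me1 replicates 1 and 2 held 4822 and 4884 peaks on chromosome 17 and 2056 and 2071 on chromosome 22. A replicated region is a run of overlapping peaks that holds a peak of both libraries of a mark. Chromosome 17 had 2131 replicated H3K27ac and 3508 replicated H3K4me1 regions, and chromosome 22 had 988 and 1486, of 45936 and 83692 on all autosomes.

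Chromatin of formaldehyde-fixed cells was sonicated and immunoprecipitated with antibodies from Abcam, with 2 libraries per mark. All libraries came from the same cell line, and the labels name no treatment and no separate cultures. The spread between replicates may therefore be technical, and it stands for a single line. Read numbers are unknown, and peak lists without heights cannot show how strong a mark was. Ranges beside percentages of peaks or regions are 95% binomial intervals by the exact Clopper-Pearson method, which hold counting error and not the spread between libraries.

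Acetylation of histone H3 at lysine 27 (H3K27ac) is written by the acetyltransferases p300 and CBP and marks active promoters and active enhancers. Monomethylation at lysine 4 (H3K4me1) is written largely by MLL3 and MLL4. It lies at enhancers, whether active or only primed, and on the shoulders of active promoters, whose centres carry trimethylation in its place. Broad H3K27ac is a known trait of strong promoters and of clustered enhancers. Chromosome 17 carries the HOXB genes and most type I keratin genes. Chromosome 22 is acrocentric, with a short arm of repeats, and carries the immunoglobulin lambda locus.

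Both chromosomes were dense in genes by the table at hand. That table, of build GRCh38, lists 1142 named protein-coding genes on chromosome 17 and 429 on chromosome 22. Divided by the length between the outermost peaks in hg19, this gives 14.1 and 12.7 genes per Mb, ranks 2 and 3 of 22 autosomes. The remaining 20 ran from 3.30 on chromosome 13 to 23.8 on chromosome 19, with a median of 5.63. The numerator and the denominator come from different builds, so these densities are approximate.

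Peaks of both marks were crowded on chromosomes 17 and 22, and the excess was larger for H3K27ac. Chromosome 17 carried 29.8 and 35.5 H3K27ac peaks per Mb in replicates 1 and 2, and chromosome 22 carried 33.3 and 40.3. The remaining autosomes carried 18.6 and 22.03, so the libraries of the chromosomes did not overlap those of the remainder. For H3K4me1, replicates 1 and 2 gave 59.4 and 60.2 peaks per Mb on chromosome 17, 60.8 and 61.2 on chromosome 22, and 40.97 and 43.5 elsewhere. As means over libraries, H3K27ac density was 32.7 ± 4.07 peaks per Mb on chromosome 17, 36.8 ± 4.91 on chromosome 22 and 20.3 ± 2.41 elsewhere (SD, n = 2). The corresponding H3K4me1 densities were 59.8 ± 0.540, 61.0 ± 0.314 and 42.2 ± 1.79.

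**Figure D1:**
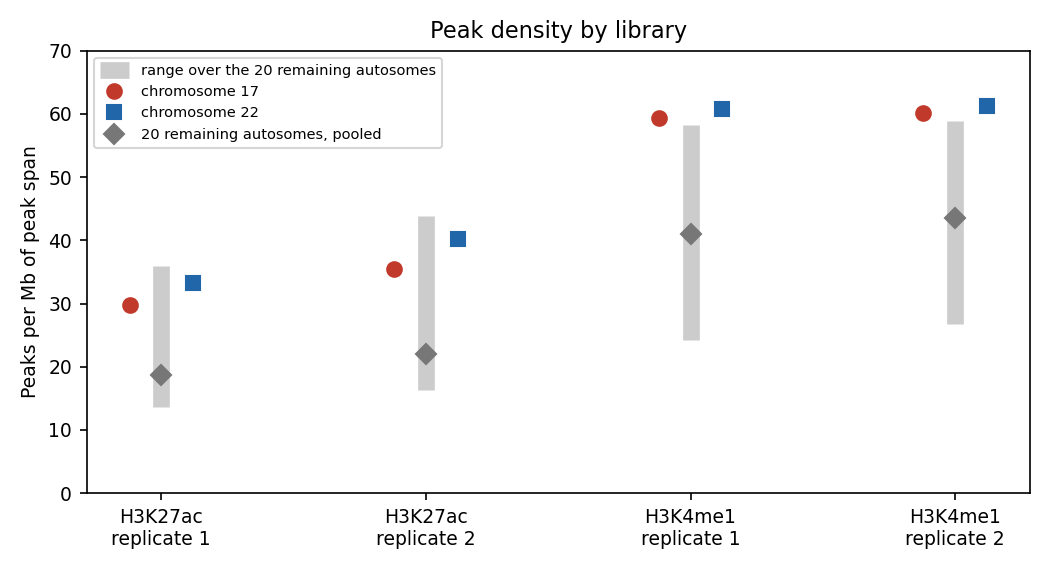
Peaks per Mb of peak span (vertical axis) in each of the 4 libraries (horizontal axis). Circles are chromosome 17, squares chromosome 22, diamonds the pooled 20 remaining autosomes, and grey bars span the lowest to the highest of those 20; for H3K4me1 both chromosomes stand above the bars, which end at 58.3 and 59.0 peaks per Mb.

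As a geometric mean over all 4 libraries, the density was 1.51 times that of the remaining autosomes on chromosome 17 (1.38 to 1.61 by library) and 1.62 times on chromosome 22 (1.41 to 1.83). It was higher in 4 of 4 libraries on each chromosome, with an exact two-sided permutation p of 0.13, the smallest that 4 libraries allow, and 0.25 after Benjamini-Hochberg adjustment over 12 tests. Here and below, this test takes up only whether libraries share a direction. It does not measure the spread among autosomes, and with 4 libraries it pools both marks. In H3K27ac both libraries ranked chromosome 19 first, chromosome 22 at rank 2 and chromosome 17 at rank 3. In H3K4me1 both libraries ranked chromosome 22 first and chromosome 17 at rank 2, ahead of chromosome 20. Per Mb between the outermost peaks, the 2 chromosomes kept the same order in all libraries, since density on chromosome 17 was 0.882 to 0.983 of that on chromosome 22. For H3K4me1 this order depends on the length used, since the span of chromosome 17 includes a peak-free stretch of 3790293 bp. Per 1 Mb window with any peak, the mean number of replicated H3K4me1 regions was 44.4 on chromosome 17 and 42.5 on chromosome 22, the other order. H3K27ac kept its order, with means of 26.97 and 28.2. In replicated regions, H3K27ac covered 4.45% of the span of chromosome 17 and 4.81% of chromosome 22, against 2.54% elsewhere. H3K4me1 covered 5.37, 5.52 and 3.46%.

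The crowding came with fewer long gaps, while the closest spacing was nearly the same as elsewhere. The median gap between replicated H3K27ac regions was 14009 bp on chromosome 17, 15886 bp on chromosome 22 and 18479.5 bp on the remaining autosomes. Gaps of at most 2 kb made up 18.6, 19.2 and 19.1% of all gaps, in the same order. Gaps over 100 kb made up 6.86% on chromosome 17 (146 gaps) and 5.88% on chromosome 22 (58 gaps), against 12.7% elsewhere. H3K4me1 had medians of 8581, 9431 and 9817 bp and shares over 100 kb of 3.25, 3.43 and 5.80%.

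The same pattern stood in every library. Gaps over 100 kb made up 5.80 and 4.55% of H3K27ac gaps on chromosome 17 in replicates 1 and 2, 5.16 and 4.34% on chromosome 22, and 10.7 and 9.06% elsewhere. For H3K4me1 they were 1.87 and 1.52%, 2.09 and 1.30%, and 3.88 and 3.08%. The median gap between peaks was shorter than on the pooled remaining autosomes in 4 of 4 libraries. Mean ratios were 0.885 on chromosome 17 (0.825 to 0.948) and 0.903 on chromosome 22 (0.837 to 0.981). The exact two-sided permutation p was again 0.13 for each (adjusted p = 0.25). Chromosomes 17 and 22 were not ordered, since the ratio of their medians ran from 0.933 to 1.03 with an exact p of 0.5. Ranked from the longest median gap between replicated regions, chromosome 17 was at rank 21 of 22 autosomes for each mark. Chromosome 22 was at rank 18 for H3K27ac and 15 for H3K4me1, so several other autosomes had shorter median gaps.

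**Figure D2:**
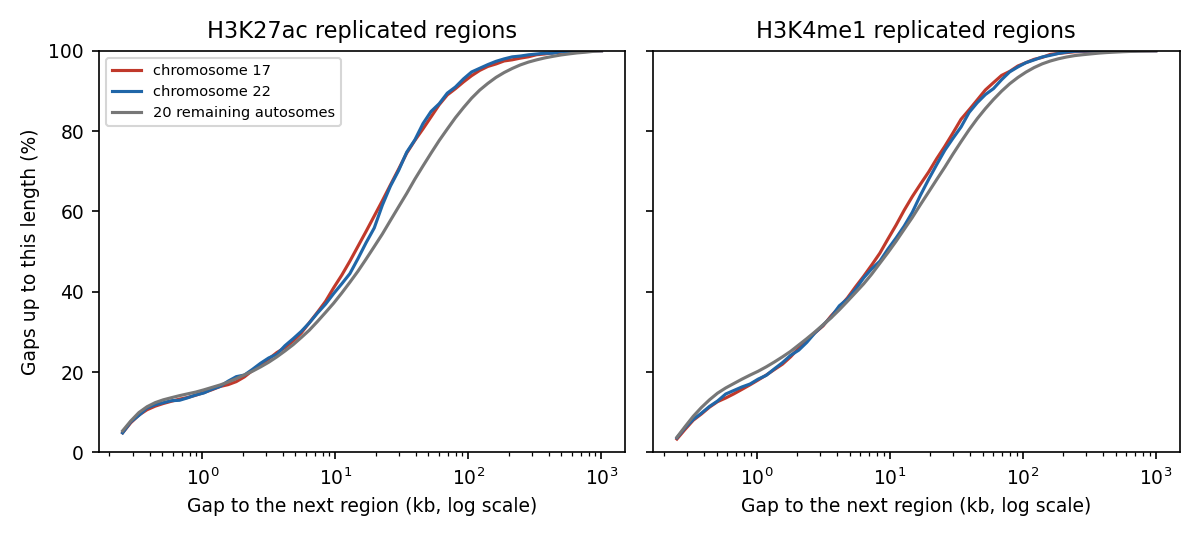
Percent of gaps between neighbouring replicated regions (vertical axis) that are no longer than the value on the horizontal axis (kb, log scale), for H3K27ac on the left and H3K4me1 on the right. The curves of both chromosomes lie close to those of the 20 remaining autosomes below 2 kb and reach the top at shorter gaps, with 6.86 and 5.88% of H3K27ac gaps beyond 100 kb against 12.7%.

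Counted in windows of 1 Mb, the chromosomes had a smaller share of sparse windows than the remaining autosomes. Of 79 windows with any peak on chromosome 17, 5 (6.33%) held at most 5 H3K27ac regions, and of 35 on chromosome 22, 2 (5.71%) did. Among 2551 windows elsewhere, 551 (21.6%) did. These counts leave out windows without any peak, of which chromosome 17 had 3 at its longest peak-free stretch. Windows with at least 40 H3K27ac regions were 18.99, 34.3 and 5.45% of windows on chromosome 17, chromosome 22 and the remaining autosomes. With sparse windows left out, the mean was still 28.6 and 29.7 H3K27ac regions per window against 20.8 elsewhere. Coefficients of variation over windows were 0.575 and 0.527 for H3K27ac on chromosomes 17 and 22, and 0.755 over the pooled windows elsewhere. For H3K4me1 they were 0.427, 0.416 and 0.641. The pooled values also hold differences between chromosomes, so they do not show that chromosomes 17 and 22 varied less than single autosomes.

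H3K27ac regions on chromosomes 17 and 22 were also wider at the median, and a larger share of them reached the limit of 1500 bp for wide regions. Peaks had medians of 1072 and 720 bp on chromosome 17 in H3K27ac replicates 1 and 2, 1082 and 685 bp on chromosome 22, and 895 and 618 bp elsewhere. In H3K4me1 replicates 1 and 2 the medians were 488 and 691 bp, 483.5 and 692 bp, and 447 and 651 bp. The width was larger in 4 of 4 libraries, by mean ratios of 1.13 on chromosome 17 (1.06 to 1.198) and 1.11 on chromosome 22 (1.06 to 1.21), each with an exact two-sided permutation p of 0.13 (adjusted p = 0.25). Between the libraries of a mark the medians differed more than between the chromosomes, and each list also has its own smallest width and gap.

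Wide peaks made up 38.4% of H3K27ac replicate 1 on chromosome 17 (36.4 to 40.3%) and 26.99% of replicate 2 (25.4 to 28.6%). On chromosome 22 they made up 36.3% (33.5 to 39.2%) and 26.8% (24.5 to 29.2%). The remaining autosomes had 33.0 and 23.2%, below both chromosomes in each library. The mean ratios were 1.16 and 1.13, in 2 of 2 libraries each, and the exact permutation p of 0.5 is the smallest that 2 libraries allow. In replicated regions, 985 of 2131 on chromosome 17 were wide, or 46.2% (44.1 to 48.4%), and 447 of 988 on chromosome 22, or 45.2% (42.1 to 48.4%), against 41% elsewhere (40.5 to 41.5%). Chromosome 17 had the highest share of 22 autosomes and chromosome 22 rank 3, with chromosome 19 between them at 45.3%. Among peaks both H3K27ac libraries instead ranked chromosome 19 first, at 38.7 and 27.96%, with chromosome 17 at rank 2 in each and chromosome 22 at ranks 4 and 3. The excess of chromosome 22 was smaller at larger widths. With a limit of 2000 bp its mean ratio was 1.03, against 1.19 on chromosome 17, and the 90th percentile of its replicated regions was 3119 bp, below the 3180 bp elsewhere.

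On chromosome 17, 51 H3K27ac regions fell short of the limit by at most 100 bp and 74 met or exceeded it by less than 100 bp. On chromosome 22 there were 34 of each. Of the 985 wide regions of chromosome 17, 735 (74.6%) held a wide peak in both libraries, 185 in replicate 1 only, 31 in replicate 2 only and 34 in neither. On chromosome 22, 330 of 447 (73.8%) held one in both. The wide regions held 75.1% of the H3K27ac length on chromosome 17 and 73.2% on chromosome 22, against 71.3% elsewhere. Very large regions were not more common on both chromosomes, since regions of at least 5 kb made up 2.96% (63) on chromosome 17, 2.33% (23) on chromosome 22 and 2.43% elsewhere.

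**Figure D3:**
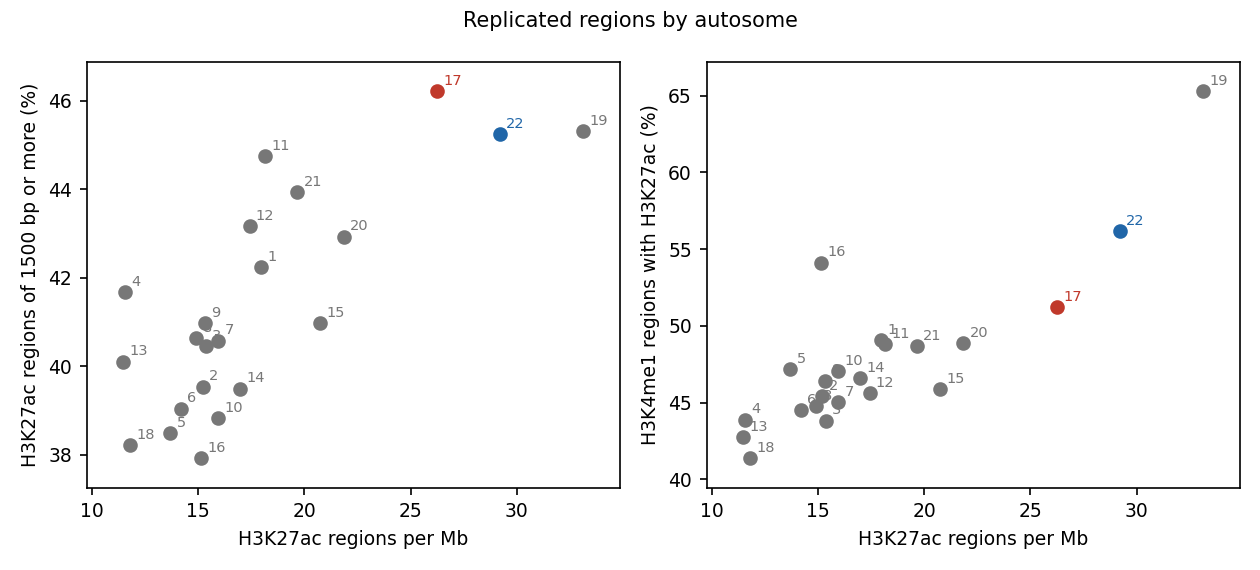
Each point is an autosome, numbered, with replicated H3K27ac regions per Mb on the horizontal axis and on the vertical axis the percent of H3K27ac regions of at least 1500 bp (left) or the percent of H3K4me1 regions that overlap H3K27ac (right); the vertical axes do not start at 0. Chromosomes 17 (46.2 and 51.2%) and 22 (45.2 and 56.2%) lie in the upper right with chromosome 19.

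Across the 22 autosomes, the share of wide H3K27ac regions went with H3K27ac density (Spearman's rho 0.758, Pearson's r 0.780). H3K27ac density itself went with genes per Mb (rho 0.841, r 0.906). These are descriptions over chromosomes of the same libraries, which are not independent samples. H3K27ac density and genes per Mb are also divided by the same length, which can build in part of their correlation. Density moved with width inside chromosomes too. In windows with 1 to 10, 11 to 20, 21 to 40 and at least 41 H3K27ac regions, the remaining autosomes had 33.3, 37.7, 42.6 and 47.5% wide regions.

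In windows of like density, the wide share of the chromosomes against the remaining autosomes depended on the class. In windows with 1 to 10 regions it was 37.8% on chromosome 17 (26.8 to 49.9%) and 30.9% on chromosome 22 (19.1 to 44.8%), against 33.3%. In the densest class, 48.3% of H3K27ac regions on chromosome 17 (44.6 to 52.1%) and 47.1% on chromosome 22 (42.5 to 51.8%) were wide, against 47.5% elsewhere. In windows with 11 to 20 regions, 45.9% (38.4 to 53.4%) and 48.0% (37.8 to 58.3%) were wide, against 37.7%, a wider gap than over all windows. In windows with 21 to 40 regions, 45.6 and 44.3% were wide, against 42.6%. With the remaining autosomes reweighted to each chromosome's mix of windows, their wide share among peaks rose from 33.0 to 35.7% in H3K27ac replicate 1 and from 23.2 to 25.6% in replicate 2 for chromosome 17. For chromosome 22 it rose to 36.2 and 26.1%, next to 36.3 and 26.8% on the chromosome. The mean ratio was then 1.06 on chromosome 17 and 1.01 on chromosome 22. The classes rest on H3K27ac itself, and what else differs between dense and sparse windows was not tested.

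**Figure D4:**
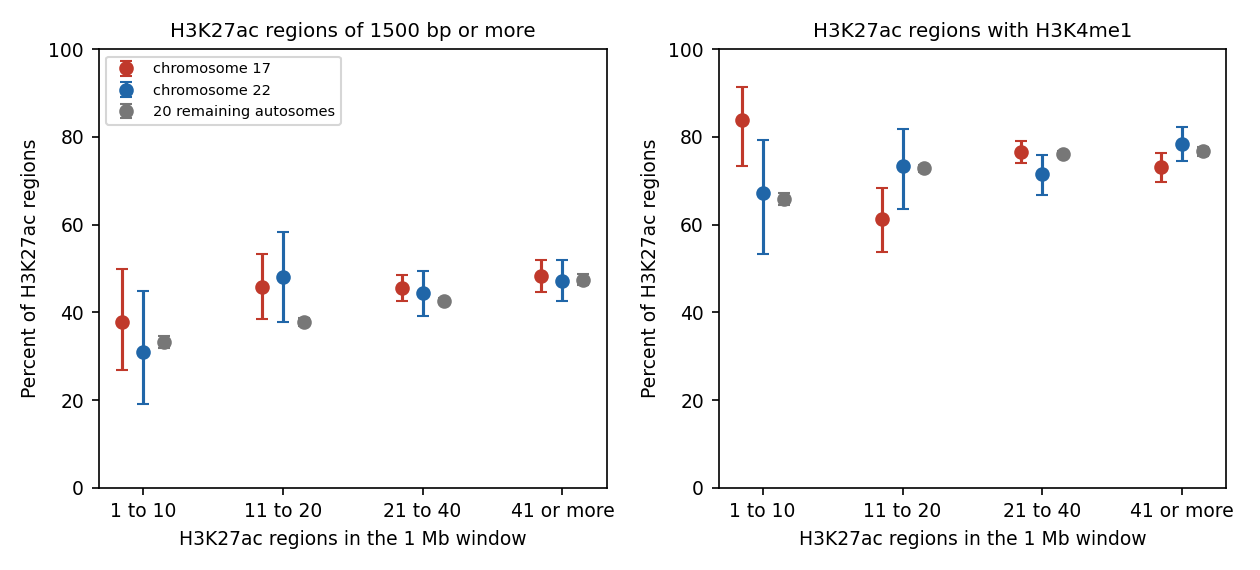
Percent of replicated H3K27ac regions that are at least 1500 bp wide (left) and that overlap H3K4me1 (right), by the number of H3K27ac regions in their 1 Mb window (horizontal axis). Points are shares and bars exact 95% binomial intervals; in windows of at least 41 regions the wide shares are 48.3, 47.1 and 47.5% for chromosome 17, chromosome 22 and the 20 remaining autosomes.

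The share of H3K27ac with H3K4me1, where active regulatory regions carry the enhancer mark, was close to that of the remaining autosomes on both chromosomes. On chromosome 17, 74.0% of H3K27ac replicate 1 peaks (72.2 to 75.7%) and 71.7% of replicate 2 peaks (70.05 to 73.4%) lay on a replicated H3K4me1 region. On chromosome 22 the shares were 73.3% (70.6 to 75.9%) and 72.9% (70.5 to 75.3%), and elsewhere 73.1 and 71.6%. The mean ratios of 1.01 on each chromosome (1.00 to 1.01 and 1.00 to 1.02 by library, exact permutation p = 0.5) turned below 1 under some alternatives. In replicated regions the shares were 74.4, 74.7 and 74.3%, ranks 12 and 11 of 22 autosomes for chromosomes 17 and 22. Chromosomes 16 and 21 mark the ends of that range, at 50.8 and 89.6%.

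The reverse share was higher on both chromosomes. H3K4me1 replicate 1 had 45.7% of its peaks on replicated H3K27ac on chromosome 17 (44.3 to 47.1%) and replicate 2 had 42.8% (41.4 to 44.2%). On chromosome 22 the shares were 49.9% (47.7 to 52.0%) and 46.4% (44.2 to 48.5%), while the remaining autosomes had 40.99 and 36.6%. The mean ratios were 1.14 (1.11 to 1.17) and 1.24 (1.22 to 1.27), in 2 of 2 libraries each, with an exact permutation p of 0.5. In replicated regions, 1797 of 3508 H3K4me1 regions on chromosome 17 carried H3K27ac, or 51.2% (49.6 to 52.9%), and 835 of 1486 on chromosome 22, or 56.2% (53.6 to 58.7%), against 46.7% elsewhere (46.3 to 47.0%). The share was not highest there, since chromosome 19 had 65.3% and chromosome 16 had 54.1%. Chromosome 22 was at rank 2 of 22 autosomes and chromosome 17 at rank 4. Among peaks both H3K4me1 libraries put chromosome 22 at rank 2 and chromosome 17 at rank 3, with chromosome 19 first.

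H3K27ac density moved with this share as well. Over the 4 window classes of rising H3K27ac density, H3K4me1 regions of the remaining autosomes carried H3K27ac in 28.7, 40.98, 52.7 and 65.2%. Those of chromosome 17 did so in 29.2, 37.6, 49.9 and 66.1%, and those of chromosome 22 in 28.5, 48.9, 56.6 and 65.7%. Reweighted to the windows of chromosome 17, the remaining autosomes had 46.8 and 43.0% in H3K4me1 replicates 1 and 2, above the 45.7 and 42.8% measured on the chromosome, so the ratio turned to 0.986. For chromosome 22 they had 47.6 and 43.8%, below its 49.9 and 46.4%, a ratio of 1.05. The classes count H3K27ac regions, and the share counts overlap with H3K27ac regions, so class and share are not independent. A rise over the classes is therefore partly built in, and reweighting by them cannot set density apart from overlap.

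More of the wide than of the narrower H3K27ac regions touched H3K4me1, while a smaller part of their length lay under it. Of wide H3K27ac regions, 81.4% on chromosome 17 (78.8 to 83.8%) and 82.8% on chromosome 22 (78.9 to 86.2%) carried H3K4me1, against 80.03% elsewhere. Of narrower ones, 68.4% (65.6 to 71.1%) and 68.0% (63.9 to 71.9%) did so, against 70.3% elsewhere. H3K4me1 covered 48.5% of the length of wide and 53.7% of that of narrower H3K27ac regions on chromosome 17, 50.1 and 56.9% on chromosome 22, and 49.9 and 58.8% elsewhere. Over all widths, H3K4me1 covered 49.8% of H3K27ac on chromosome 17, 51.9% on chromosome 22 and 52.4% elsewhere. H3K27ac covered 41.4, 45.3 and 38.5% of H3K4me1. Width itself raises the chance of touching another region, so these shares are not independent of width.

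Regions without the other mark lay at different distances from it. The 545 H3K27ac regions without H3K4me1 on chromosome 17 had a median of 5824 bp to the nearest H3K4me1 region, the 250 on chromosome 22 one of 8646 bp and the 11004 elsewhere one of 7617.5 bp. The 1711 and 651 H3K4me1 regions without H3K27ac were 10612 and 10859 bp from the nearest H3K27ac region at the median, against 15518.5 bp elsewhere. More than 20 kb separated 35.9 and 33.9% of them from H3K27ac, against 43.8%. These distances are not independent of the densities above.

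Summed over wide H3K27ac regions, H3K4me1 was lower in the middle than towards the ends, on both chromosomes and elsewhere, but most single regions did not have it at both ends only. H3K4me1 covered the middle and both outer positions in 29.9% of these regions on chromosome 17 and 30.9% on chromosome 22, and none of the 3 in 28.0 and 24.6%. On chromosome 17, H3K4me1 covered the middle of 36.0% of the 985 wide regions and a point 0.75 of the distance towards either end in 56.7%, a ratio of 0.636. On chromosome 22 it covered 37.8 and 59.7% of 447, a ratio of 0.633, and elsewhere 37.9 and 57.1%, a ratio of 0.665. Either H3K4me1 library alone showed the dip, with ratios of 0.550 and 0.630 on chromosome 17 and 0.554 and 0.623 on chromosome 22. Both outer positions without the middle were covered in 120 regions (12.2%) on chromosome 17 and 62 (13.9%) on chromosome 22. A larger group had H3K4me1 at a single outer position and not in the middle, with 234 regions (23.8%) and 106 regions (23.7%), against 20.5% elsewhere.

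**Figure D5:**
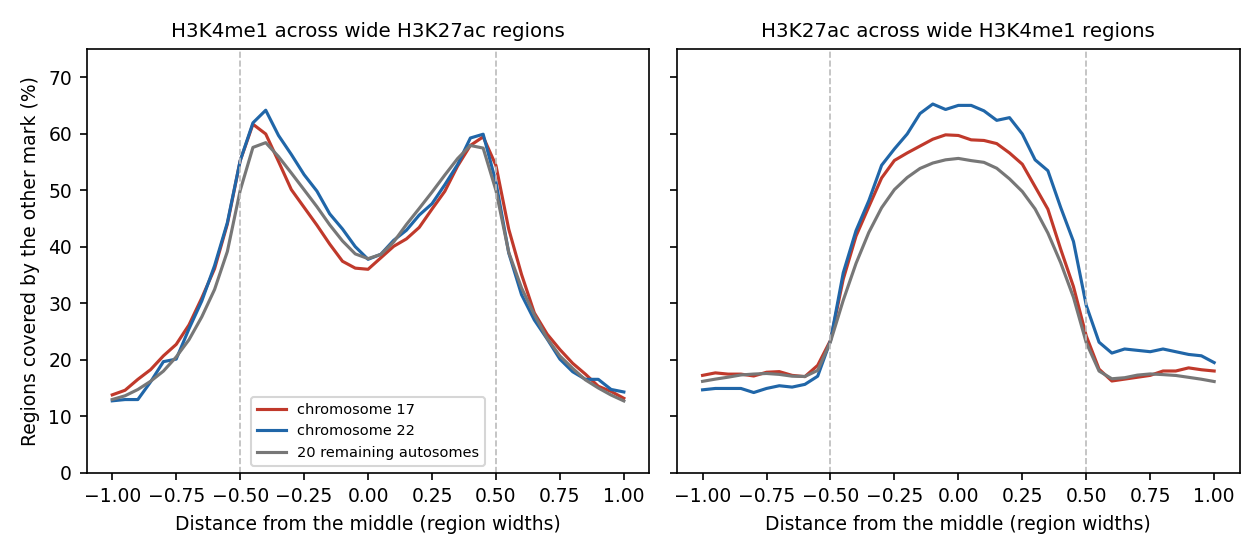
Percent of wide regions (at least 1500 bp) whose base at a given distance from the middle, in region widths, lies in a replicated region of the other mark; dashed lines are the region ends. H3K4me1 across H3K27ac regions (left) dips in the middle, to 36.0% on chromosome 17 and 37.8% on chromosome 22, and H3K27ac across H3K4me1 regions (right) is higher around the middle, at 59.7 and 65.1%, than towards the ends.

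H3K27ac was higher in the middle of wide H3K4me1 regions than at their outer positions. It covered the middle of 59.7% of 904 wide H3K4me1 regions on chromosome 17 and 65.1% of 415 on chromosome 22, against 55.7% elsewhere. At the outer positions it covered 43.5, 47.2 and 39.9%. With H3K27ac replicate 1 alone, the middle was covered in 58.1, 60.5 and 55.2%, and with replicate 2 alone in 53.4, 58.1 and 49.4%. Chromosome 22 was above chromosome 17 and chromosome 17 above the remaining autosomes with either library.

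H3K4me1 outnumbered H3K27ac less than elsewhere. On chromosome 17 the H3K4me1 libraries held 4853 ± 43.8 peaks and the H3K27ac libraries 2649.5 ± 330.2 (SD, n = 2), a ratio of 1.84 (1.67 to 2.02 over pairs of libraries). On chromosome 22 they held 2063.5 ± 10.6 and 1244.5 ± 166.2 peaks (SD, n = 2), a ratio of 1.67 (1.51 to 1.84), against 2.08 (1.86 to 2.34) on the remaining autosomes. The exact two-sided permutation test of the marks gave p = 0.33 on each chromosome, the smallest that 2 against 2 libraries allow. It compares the marks on a chromosome and does not take up the difference from elsewhere. In replicated regions the ratios were 1.65, 1.504 and 1.84. Ranked from the highest ratio, chromosome 17 was at rank 19 and chromosome 22 at rank 20 of 22 autosomes. Chromosomes 16 and 19 had lower ratios, 1.12 and 1.09. This ratio and the share of H3K4me1 with H3K27ac are not independent, since the share of H3K27ac with H3K4me1 was close to that elsewhere.

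Overlap of the marks was uneven along both chromosomes. The longest stretch of chromosome 17 without any peak, chr17:21499168-25289460, holds the centromere. Before it, 66.8% of 533 H3K27ac regions carried H3K4me1 (62.6 to 70.8%), and after it 77.0% of 1598 (74.8 to 79.0%). H3K27ac replicates 1 and 2 gave 66.7 and 63.3% before and 76.5 and 74.6% after. H3K4me1 was also sparser before the stretch, with 48.9 and 51.7 peaks per Mb in replicates 1 and 2 against 67.5 and 67.5 after it. H3K27ac density rose less, from 28.4 to 32.3 and from 34.4 to 38.4 peaks per Mb.

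Chromosome 22 went the other way. Its longest stretch without a peak, chr22:34435640-34678490, is 242851 bp long, far shorter than that of chromosome 17. This stretch serves as a boundary only because it is the longest, so its sides are not taken as chromosome arms. Before it, 79.8% of 481 H3K27ac regions carried H3K4me1 (76.0 to 83.3%), and after it 69.8% of 507 (65.6 to 73.8%). H3K27ac replicates 1 and 2 gave 79.5 and 77.5% before and 67.4 and 68.5% after. H3K4me1 density fell from 65.5 to 56.8 and from 66.6 to 56.6 peaks per Mb in replicates 1 and 2, while H3K27ac density rose from 32.3 to 34.9 and from 39.1 to 42.0.

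In blocks of 5 Mb, chosen after their values were seen, the highest and lowest shares on chromosome 17, among blocks of over 100 H3K27ac regions, lay from 25 to 30 Mb and from 5 to 10 Mb. H3K4me1 lay on 117 of 130 H3K27ac regions in the first (83.5 to 94.6%), and on 89 of 152 in the second, or 58.6% (50.3 to 66.5%). With H3K4me1 replicates 1 and 2 alone the shares were 93.8 and 93.1% in the first and 58.6 and 69.1% in the second, so the blocks kept their order with either library. Between 20 and 25 Mb, which includes the peak-free stretch, 35 H3K27ac regions were found, of which 57.1% carried H3K4me1 and 17.1% were wide. On chromosome 22 the shares ran from 66.7% (38 of 57 regions) in the last block, from 50 Mb, to 86.2% (100 of 116) from 25 to 30 Mb.

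The densest window of chromosome 17 was the same for both marks. In chr17:79000001-80000000, H3K27ac replicates 1 and 2 had 80 and 88 peaks and H3K4me1 replicates 1 and 2 had 129 and 123. Of the 73 H3K27ac regions there, 93.2% carried H3K4me1 and 60.3% were wide, and of the 100 H3K4me1 regions 81.0% carried H3K27ac. On chromosome 22, H3K27ac was densest in chr22:43000001-44000000, with 54 regions (59 and 78 peaks by library) of which 87.0% carried H3K4me1. The same window tied for the most H3K4me1 regions with chr22:21000001-22000000, at 69 each. Of these, 69.6% carried H3K27ac in the first window and 58.0% in the second.

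The widest H3K27ac regions ranged from bare to nearly covered by H3K4me1. On chromosome 17 the widest was chr17:46793245-46808403, 15159 bp long, with H3K4me1 over 15.02% of its length. Its widest peak measured 15049 bp in H3K27ac replicate 1 and 13359 bp in replicate 2. It was followed by chr17:27045628-27057142 (11515 bp, 41.3% under H3K4me1), which was a single peak in each H3K27ac library. In contrast, chr17:80060490-80070814 (10325 bp) and chr17:36068426-36078703 (10278 bp) lay under H3K4me1 for 94.1 and 94.8%, and chr17:76996622-77006637 (10016 bp) for 60.8%.

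The widest H3K27ac region of chromosome 22 stood apart in size. It spans chr22:46447846-46478319 and reached 30220 bp as 1 peak of H3K27ac replicate 1 and 21960 bp as the wider of 2 peaks of replicate 2, whereas the next widest region was 8769 bp. No replicated H3K4me1 region touched it, and single-library peaks covered 422 bp in H3K4me1 replicate 1 and 815 bp in replicate 2. It held 1.87% of all H3K27ac length on the chromosome, and without it H3K27ac would cover 4.72% of the span. The others had H3K4me1 over 99.2% (chr22:30699401-30708169), 77.7% (chr22:29213011-29221130), 49.9% (chr22:23876468-23884412) and 79.2% (chr22:29777777-29785111) of their length.

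The widest H3K4me1 regions were under H3K27ac to differing degrees. On chromosome 17, chr17:76988712-76998938 (10227 bp) was covered for 82.9% and overlaps the start of the fifth widest H3K27ac region, while chr17:35628620-35636706 (8087 bp) was covered for 56.0%. The next, chr17:34141031-34148795 (7765 bp), had H3K27ac over 10.4% and was a single peak in H3K4me1 replicate 2 but 5 peaks in replicate 1. The 3 widest of chromosome 22, chr22:20402324-20412084 (9761 bp), chr22:21846478-21855415 (8938 bp) and chr22:21788034-21796841 (8808 bp), were covered for 60.8, 69.4 and 47.1%.

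Clusters of H3K27ac regions, joined where gaps were at most 0.0125 Mb as is usual for clustered enhancers, stood denser on both chromosomes, and those of chromosome 17 held more regions each. Chromosome 17 had 1129 such domains (13.9 per Mb, 1.89 regions each), chromosome 22 had 555 (16.4 per Mb, 1.78 each), and the remaining autosomes had 9.34 per Mb with 1.71 each. Domains of at least 5 regions held 20.5% of H3K27ac regions on chromosome 17 and 15.5% on chromosome 22, against 13.8% elsewhere. Domains with at least 20 kb of H3K27ac numbered 10 and 3, and held 7.33 and 5.58% of its length, against 4.51%. On chromosome 22 this rests on its largest domain, without which the other 2 held 2.72%.

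The 3 largest domains of chromosome 17 had similar amounts of H3K27ac in different forms. The first, chr17:46793245-46839132, held 32.5 kb in 4 regions (32.0 and 32.0 kb by library) and includes the widest region, with H3K4me1 over 28.9% of the span. The second, chr17:26988045-27091707, held 32.2 kb in 11 regions (31.1 and 30.1 kb), with H3K4me1 over 28.1%. The last, chr17:8013231-8127735, held 32.1 kb in 24 regions (30.5 and 28.8 kb), with H3K4me1 over 6.97%. It lies in the block from 5 to 10 Mb. The order of the 3 domains was the same in both H3K27ac libraries.

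The largest domain of chromosome 22, chr22:46390938-46481797, held 46.6 kb of H3K27ac in 9 regions (47.0 and 46.1 kb by library) and had H3K4me1 over 2.74% of its span. The domains chr22:24642981-24719716 (22.3 kb, 22.2 and 19.7 kb by library) and chr22:29168512-29221130 (21.98 kb, 22.3 and 21.6 kb) had H3K4me1 over 29.3 and 36.6%. Both of these domains carried far more H3K4me1 than the largest.

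H3K4me1 domains without any H3K27ac peak, the pattern known from primed enhancers, made up a smaller share of H3K4me1 domains than elsewhere. They were 472 of 1423 H3K4me1 domains on chromosome 17 (33.2%) and 219 of 658 on chromosome 22 (33.3%), against 40.2% on the remaining autosomes. This share is not independent of H3K27ac density, since any H3K27ac peak takes a domain out of the count. The domains without H3K27ac were small, with medians of 924.5 and 926 bp of H3K4me1 against 940 bp. The 3 largest on chromosome 17 were chr17:41616502-41641405 (6.18 kb of H3K4me1 in 6 regions), chr17:53231340-53245472 (6.13 kb) and chr17:52848311-52860638 (4.93 kb). Those on chromosome 22 were chr22:30969341-30974268 (4.66 kb, over 94.6% of its span), chr22:40998682-41003350 (4.10 kb) and chr22:44568236-44581501 (4.01 kb). No test over libraries was made for domains.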

How the data were processed

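Peaks of 4 immunoprecipitated VCaP libraries were used, 2 for H3K27ac and 2 for H3K4me1. The input library is not analysed here. Build hg19 (GRCh37) and 4 tools, MACS2 2.1.0, Bowtie 1.1.2, Trimmomatic 0.33 and bcl2fastq 2.17, stand in the submitters' processing notes with no role stated. For the peak threshold and the control, the sources used here give nothing. Per library, the authors deposited 1 list with chromosome, start, end and peak name, so peaks were not pooled and values are positions in bp. Read depth is unknown. Each list has its own smallest peak width (221, 172, 191 and 232 bp) and its own smallest gap, 1 bp longer.

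Densities divide counts by the distance between the outermost peaks of any list on a chromosome (81.1 Mb on chromosome 17, 33.8 Mb on chromosome 22). Spacing uses gaps of up to 1 Mb. Values were computed with Python 3.11.15, numpy 2.4.6, pandas 2.3.3 and scipy 1.17.1. The interval functions were tested on simulated data. Each chromosome was compared with the pooled 20 remaining autosomes of the same library, by an exact two-sided sign-flip permutation test of log2 ratios over libraries, computed from the deposited positions. Alternatives varied the length measure, the lists, the limits and the libraries.

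The chromosomes, measures and alternatives were chosen with earlier results of these data known, and window density classes were set after their values were seen. By rule, the text names on each chromosome the 5 widest H3K27ac and 3 widest H3K4me1 regions, the 3 largest domains of each kind, the densest 1 Mb windows and the longest peak-free stretch. Other windows and 5 Mb blocks named were picked after their values were seen. The gene table at hand is of GRCh38 (GCF_000001405.40, GRCh38.p14), so it gave gene numbers per chromosome only, and no gene was assigned to a region.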

Additional observations from a re-analysis of the deposited data

Results flagged for a closer look

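The sides of chromosomes 17 and 22 before and after their longest peak-free stretch differed in opposite directions, in both libraries of a mark, and the difference between the chromosomes was not tested. The share of H3K27ac peaks with H3K4me1 was higher after the stretch on chromosome 17, by 9.81 and 11.3 percentage points in H3K27ac replicates 1 and 2, and the change on chromosome 22 was -12.0 and -9.02 points. H3K4me1 density changed by 18.6 and 15.9 peaks per Mb on chromosome 17 and by -8.69 and -9.92 on chromosome 22 in H3K4me1 replicates 1 and 2. The share of H3K4me1 peaks with H3K27ac changed by -0.0913 and -1.48 points on chromosome 17 and by 4.38 and 5.59 points on chromosome 22. The chromosome 17 values of the last measure are near 0. On chromosome 22 the stretch is short, and its place as a boundary follows only from the naming rule.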

How the results depend on the processing

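Of 146 alternatives tried for 16 results, 131 left the direction as it was, stayed within the spread between libraries or, for numbers of domains, stayed within 1.5 times. No p could pass 0.05 in this design, so for tested results only directions were compared. Part of the 131 was fixed in advance, since leaving out a library cannot turn a direction that all libraries of a result share. The number 131 is therefore no measure of how firm the results are. The ratio of the share of H3K27ac with H3K4me1 turned below 1 in 8 cases. On chromosome 17 it was 0.999 without chromosome 19, 0.985 against the median of the remaining autosomes, 0.969 with an overlap of 50% of the shorter interval and 0.986 after reweighting by window density. On chromosome 22 the corresponding values were 0.988 against the median, 0.982 with 50% overlap and 0.992 after reweighting, and it was 0.996 with the union of H3K4me1 peaks. The ratio of the share of H3K4me1 with H3K27ac on chromosome 17 turned to 0.986 after reweighting. Replicated regions in place of peaks moved the gap ratio of chromosome 17 to 0.814, its wide share to 1.13, the share of H3K4me1 with H3K27ac to 1.098 on chromosome 17 and 1.204 on chromosome 22, and the peak number ratio of the marks to 1.65 and 1.504; the cause was not tested. Leaving out a library gave density ratios of 1.48 to 1.55 on chromosome 17 and 1.55 to 1.69 on chromosome 22. With the number of 1 Mb windows holding a peak as length, the density ratios were 1.48 on chromosome 17 and 1.49 on chromosome 22. For chromosome 22 this was the lowest value of any alternative. With the replicate block the ratio of marks was 1.84 on chromosome 17 and 1.67 on chromosome 22, as without it. This was fixed in advance, since the mean of paired differences equals the difference of means. Deviations of libraries with the same number were nearly unrelated (r = -0.127 across 114 windows of 1 Mb). Crossed numbers gave 0 calls, which was fixed as well, since no p could pass 0.05. Reweighting and crossed numbers were added after seeing the data. Joining at 5 kb gave 1530 and 703 domains in place of 1129 and 555, outside the 1194 to 1203 and 574 to 592 of single libraries. Setting 232 bp as smallest width and gap in every list turned no direction. Depth is unknown, so peaks missed for lack of reads cannot be counted. Stricter thresholds could not be set, since the lists hold no scores.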

Other observations

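Per gene, the chromosomes were poor in regions of both marks although they were rich per Mb. Chromosome 17 had 1.87 H3K27ac and 3.07 H3K4me1 regions per named protein-coding gene of the GRCh38 table, each rank 20 of 22 autosomes. Chromosome 22 had 2.30 and 3.46, ranks 17 and 19, and the medians of the remaining autosomes were 2.88 and 5.45. Chromosome 19 was lowest, with 1.39 and 1.52.

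H3K4me1 peaks recurred between libraries more often than elsewhere in replicate 2. There, 73.0% of peaks on chromosome 17 and 73.2% on chromosome 22 overlapped a replicate 1 peak, against 68.6% on the remaining autosomes. For replicate 1 the shares were 88.5, 90.2 and 88.5%.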
